A study of Mus musculus with 18 samples.

Results

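Flattop and 9 core planar cell polarity genes were examined in crypt cells of the mouse small intestine, sorted on a fluorescent Flattop reporter. The genes were Cfap126, which encodes Flattop, and Celsr1, Celsr2, Celsr3, Fzd3, Fzd6, Vangl1, Vangl2, Prickle1 and Ptk7. They were taken by exact gene symbol from the platform annotation. Each of the 10 had 1 probe set, and they are 10 of 19938 genes with a symbol of their own on the array. The reporter-high, reporter-low and reporter-negative gates had 2 arrays each. Every array held RNA from crypt cells pooled from 2 animals, and all pools came from C57Bl6/J mice aged 4 months with the genotype FltpZV/+, so cells of the negative gate carry the reporter allele too. The labels give the gate as a GFP level in the sort, and do not say whether gates of the same replicate number came from the same animals. Values are log2 RMA values, in which 1 unit is a doubling, and 6 of the 18 arrays of the series are used here. The comparison asks whether the transcripts of the polarity pathway follow the reporter.

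Planar cell polarity orients cells within the plane of an epithelium. Celsr cadherins join neighbouring cells, with Frizzled receptors gathered on 1 side of a cell and Vangl and Prickle proteins on the opposite side. Ptk7 is a pseudokinase co-receptor that acts with Vangl2 in vertebrates, and Flattop is a microtubule-associated protein of ciliated cells that takes part in placing basal bodies in the mouse.

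Because the gates read a reporter of the Cfap126 gene, the sequence at its start is given here. RefSeq (GRCm38.p6) lists 3 start sites for Cfap126, and the window of 300 bases around the most upstream site lies at chr1:171113736-171114035 on the plus strand. Capitals mark the 50 bases from the start site onward.
Cfap126: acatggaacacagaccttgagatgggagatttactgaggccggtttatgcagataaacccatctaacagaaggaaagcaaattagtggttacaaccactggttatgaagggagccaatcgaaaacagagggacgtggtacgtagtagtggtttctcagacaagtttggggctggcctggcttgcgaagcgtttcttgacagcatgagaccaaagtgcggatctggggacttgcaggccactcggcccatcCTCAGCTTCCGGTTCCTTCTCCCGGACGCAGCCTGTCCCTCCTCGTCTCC
Promoter windows were given for 6 of the 10 genes, 9 windows in all. Neither strand of the Cfap126 windows held the Tcf/Lef core CTTTGA or CTTTGT, the RFX half-site GTTGCC or the forkhead sequence GTAAACA, which stood in 31.2%, 12.5% and 3.65% of all 32851 promoter windows of that length.

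The Flattop transcript was not called between any of the gates, and its high and negative arrays overlapped. Cfap126 had values of 5.15 and 5.0 on the high arrays, 5.16 and 6.13 on the low arrays, and 5.39 and 4.79 on the negative arrays. The highest value was on 1 low array and the lowest on 1 negative array. The high arrays lay between both negative arrays and below both low arrays, the nearest pair at 5.15 and 5.16, and the gap between the low arrays, 0.97, was the widest within any gate for any of the 10 genes. Cfap126 averaged 5.07 ± 0.11 in high cells, 5.64 ± 0.69 in low cells and 5.09 ± 0.42 in negative cells (SD, n = 2 each). The difference of high minus negative was -0.01 ± 0.36 (SE; limma adjusted p = 0.983). Its 95% interval ran from -0.86 to 0.83, so a transcript up to 1.78-fold higher or 1.81-fold lower in high cells lies inside it. Low minus negative was 0.55 ± 0.36 (limma adjusted p = 0.528; 95% limits -0.29 and 1.40), and high minus low was -0.57 ± 0.36 (limma adjusted p = 0.366; limits -1.41 and 0.28). Without low replicate 2, low minus negative was 0.07, and without low replicate 1 it was 1.04. Without negative replicate 1, high minus negative was 0.28. The labels do not say whether the reporter allele still makes sequence that this probe set binds. In sorted bulk cells, fewer cells making a transcript and less of it in each cell cannot be told apart.

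The 3 genes whose profile over the 6 arrays lay closest to that of Cfap126 were Hivep2, Bahd1 and Ccndbp1, with root mean square differences of 0.06, 0.11 and 0.12 on the log2 scale after each gene was centred on its mean, among 12296 genes above background left after those with placeholder symbols were removed. Hivep2, a zinc finger transcription factor gene, had 4.98 and 4.74 on the high arrays, 4.91 and 6.05 on the low arrays, and 5.17 and 4.66 on the negative arrays. As in Cfap126, its highest value was on low replicate 2 and its lowest on negative replicate 2. Hivep2 was picked for likeness over these same 6 arrays, so this match is not a separate result.

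**Figure D1:**
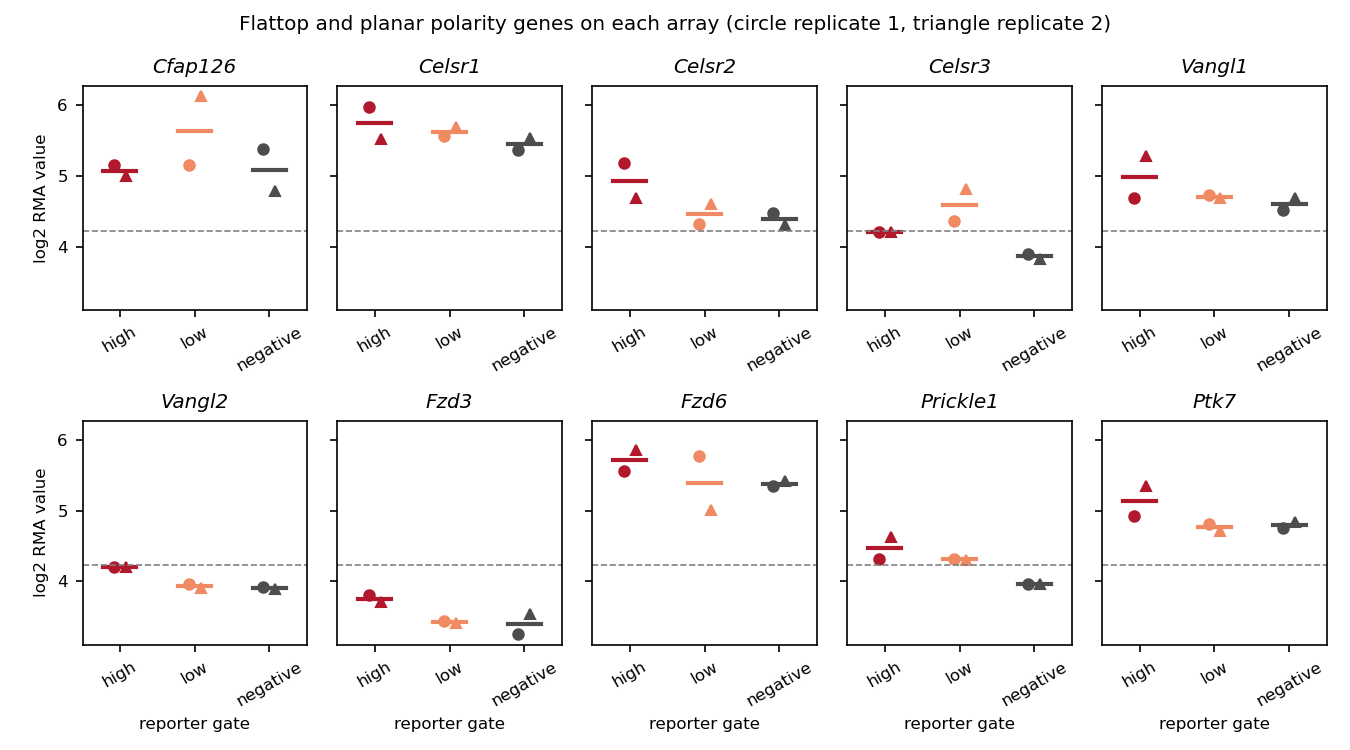
Log2 RMA value (vertical axis) of each of the 10 genes on each array of the high, low and negative gates. Circles are replicate 1, triangles replicate 2, short bars the mean of a gate, and the dashed line the background level of 4.23. Cfap126 values overlap between high and negative gates and between low and negative gates but not between high and low gates, and Vangl2 and Fzd3 lie under the line on every array.

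None of the 10 genes passed an adjusted p of 0.05 in any of the 3 comparisons (limma, adjusted over all 19938 genes). At an unadjusted p under 0.05 there was 1 gene in high minus negative (Prickle1), 1 in low minus negative (Celsr3) and 0 in high minus low, against 22.2%, 18.5% and 22.6% of all genes. Among all genes 4.71% were called in high minus negative cells, 5.96% in low minus negative and 4.91% in high minus low. The smallest difference called in any gene was 0.82, 0.79 and 0.81 in the same order, and the members' estimates ran from -0.01 to 0.54, from -0.03 to 0.73 and from -0.57 to 0.47. Of the 10 genes, 6 lay above the background level on all arrays and 2 on none. That level, 4.23, is the 95th percentile of 1207 olfactory, vomeronasal and trace amine receptor genes, which are not known to act in crypts.

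The Celsr cadherins, which hold polarity complexes together across cell borders, had a different gate on top for Celsr3 than for Celsr1 and Celsr2. Celsr1 had 5.98 and 5.52 on the high arrays, 5.56 and 5.69 on the low arrays, and 5.36 and 5.53 on the negative arrays. Its high and negative arrays overlapped, with a difference of 0.30 ± 0.22 (SE; limma adjusted p = 0.442). It was 0.07 without high replicate 1 and 0.53 without high replicate 2. Celsr2 had 5.18 and 4.68 on the high arrays, 4.32 and 4.60 on the low arrays, and 4.47 and 4.30 on the negative arrays. Both high arrays lay above the other 4, and low and negative arrays overlapped. The high gate exceeded the negative gate by 0.54 ± 0.23 (limma adjusted p = 0.238) with 95% limits of -0.02 and 1.10, and high minus low was 0.47 ± 0.23 (limma adjusted p = 0.284). Without high replicate 1 these were 0.29 and 0.22, and without high replicate 2 they were 0.79 and 0.72.

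Celsr3, a family member known best from neurons, was above background on the low arrays alone. It had 4.21 and 4.20 on the high arrays, 4.37 and 4.81 on the low arrays, and 3.89 and 3.83 on the negative arrays. The 3 gates did not overlap. Low minus negative was at least 0.36 on the log2 scale, or 1.29-fold. The measured means were 4.59 in low and 3.86 in negative cells, with 95% limits of 0.23 and 1.23 for their difference (limma adjusted p = 0.106). High minus low had the same bound in the other direction, at least 0.36 lower in high cells (limma adjusted p = 0.315), and the 95% limits of its measured difference, -0.88 and 0.11, lay on both sides of 0. Both bounds were 0.14 without low replicate 2 and 0.58 without low replicate 1. Enteroendocrine markers averaged 6.13 and 5.59 on the high arrays, 10.51 and 10.56 on the low arrays, and 4.84 and 4.91 on the negative arrays, over 6 genes, and their part in the Celsr3 values was not tested. Of 5 neuron and glia markers 3 were measured, 1 of them above background on all arrays, with means of 4.28 and 4.44, 3.86 and 3.95, and 3.96 and 4.05 for high, low and negative arrays.

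The Frizzled receptors of the pathway were not called either. Fzd6, which orients hair follicles in mouse skin, had 5.56 and 5.86 on the high arrays, 5.77 and 5.02 on the low arrays, and 5.34 and 5.42 on the negative arrays. High arrays lay above negative arrays, while the low arrays overlapped both. High minus negative was 0.33 ± 0.28 (SE; limma adjusted p = 0.511) and the 95% limits were -0.33 and 0.99. It was 0.47 without high replicate 1 and 0.18 without high replicate 2. Fzd3, which guides axons in the mouse, was at or under background throughout, with 3.81 and 3.71 on the high arrays, 3.44 and 3.41 on the low arrays, and 3.25 and 3.54 on the negative arrays. Its high arrays were above the other 4, but with all of them not above background no fold is given.

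The Vangl proteins, membrane partners of Prickle, showed the same order of gate means. Vangl1 had 4.68 and 5.29 on the high arrays, 4.73 and 4.69 on the low arrays, and 4.52 and 4.68 on the negative arrays. The gap of 0.61 between the high arrays was wider than any distance between gate means for this gene. The high gate lay above the negative gate by 0.38 ± 0.24 (SE; limma adjusted p = 0.384), by 0.69 without high replicate 1 and by 0.08 without high replicate 2. Vangl2, whose loss of function causes the loop-tail neural tube defect in mice, had 4.20 and 4.21 on the high arrays, 3.97 and 3.91 on the low arrays, and 3.93 and 3.89 on the negative arrays. Its high arrays lay above the other 4, all of them not above background.

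Prickle1, a cytoplasmic partner of Vangl proteins, had the smallest p of the 10 in high minus negative. It had 4.32 and 4.62 on the high arrays, 4.32 and 4.31 on the low arrays, and 3.96 on both negative arrays. Both positive gates lay above the negative gate and overlapped each other. High minus negative was at least 0.24, or 1.18-fold, since no negative array was above background, with measured means of 4.47 and 3.96 (limma adjusted p = 0.183). That bound was 0.09 without high replicate 2 and 0.40 without high replicate 1. Low minus negative was at least 0.09, or 1.06-fold, with measured means of 4.31 and 3.96 (limma adjusted p = 0.421). The 95% limits of that measured difference were -0.10 and 0.80, so a fall in low cells lies inside them.

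Ptk7 had 4.93 and 5.34 on the high arrays, 4.81 and 4.72 on the low arrays, and 4.75 and 4.84 on the negative arrays. Both high arrays lay above the other 4, which overlapped between low and negative cells. The estimate for high minus negative was 0.34 ± 0.21 (SE; limma adjusted p = 0.370). Its 95% limits were -0.15 and 0.83. High minus low was 0.37 ± 0.21 (limma adjusted p = 0.322). Without high replicate 2 these were 0.13 and 0.16, and without high replicate 1 they were 0.55 and 0.58.

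**Figure D2:**
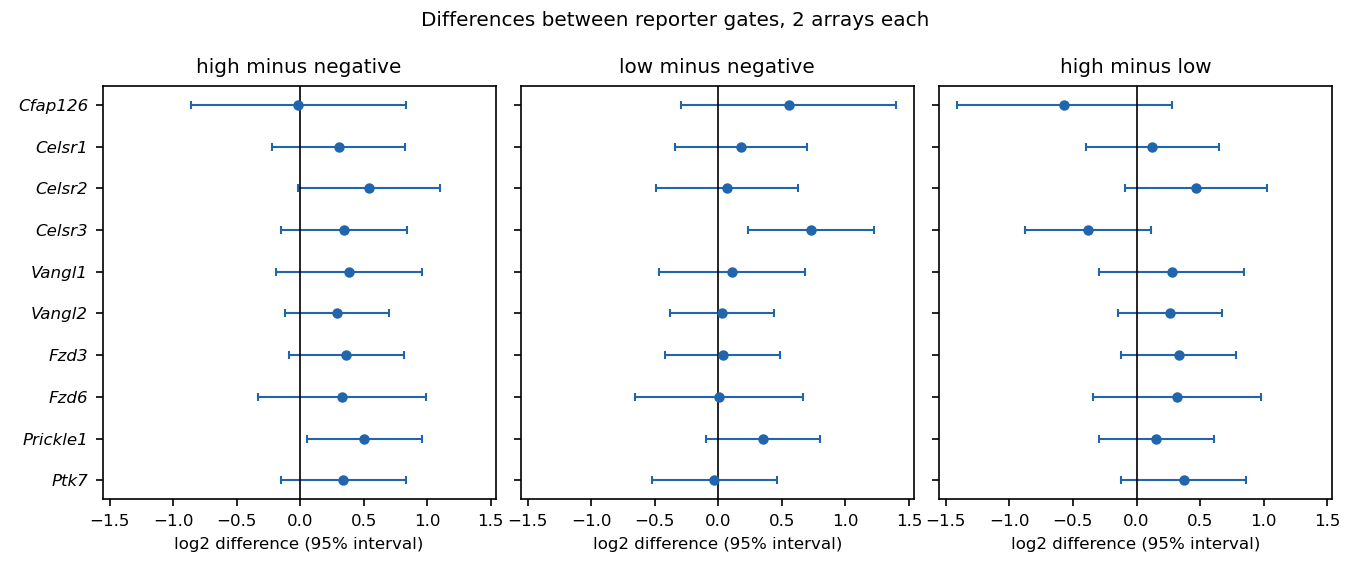
Log2 difference with its 95% interval (horizontal axis) for each of the 10 genes (vertical axis) in the 3 comparisons, from 2 arrays a gate. In high minus negative 9 of 10 estimates lie above 0, and all intervals but that of Prickle1 cross 0 there.

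Read together, the members leaned toward the high gate, and so did weakly expressed genes across the array. In high minus negative, 9 of 10 estimates were above 0, against 59.3% of all genes, and the median was 0.34 against 0.10 for all genes. Of genes with mean values from 4 to 5, where 6 of the 10 members lie, 75.9% were above 0. Arrays of the gates did not overlap for 7 members, all of them higher and 0 lower, against 32.9% and 22.4% of all genes. Among the 7, Celsr3, Vangl2 and Fzd3 were not above background in either gate. Of the 7047 genes not above background, 3325 were higher without overlap and 286 lower. In high minus low 8 of 10 estimates were above 0, against 61.7% of all genes, with a median of 0.27 against 0.13. In that comparison 4 members were higher without overlap and 2 lower, Cfap126 and Celsr3, against 35.3% and 20.4% of all genes. Among the 4, Vangl2 and Fzd3 were not above background in either gate. Of the 7047 genes not above background, 3674 were higher without overlap there and 380 lower. In low minus negative 9 of 10 were above 0, against 45.1%, with a median of 0.09 against -0.03, but with arrays centred on their medians 5 of 10 were above 0 and the median was 0.01. In low minus negative 4 were higher without overlap and 0 lower, against 23.0% and 28.5%. High minus negative and high minus low share the high arrays.

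The signal of dim genes was higher on the high arrays, most of all on high replicate 2. The 1207 receptor genes had medians of 3.32 and 3.52 on the high arrays, 3.15 and 3.19 on the low arrays, and 3.19 and 3.22 on the negative arrays. Their median difference was 0.20 in high minus negative, where 1036 of 1207 were above 0. Over all 4359 genes with mean values from 4 to 5, the median was 0.22 with a middle range from 0.01 to 0.41. Over 3413 genes from 5 to 6 it was -0.03. With arrays centred on the receptor genes, a setting chosen after the data were examined, the members' median was 0.13 in high minus negative and 0.02 in high minus low, beside -0.11 and -0.12 for all genes. The part of this shift in the members' values was not tested further.

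**Figure D3:**
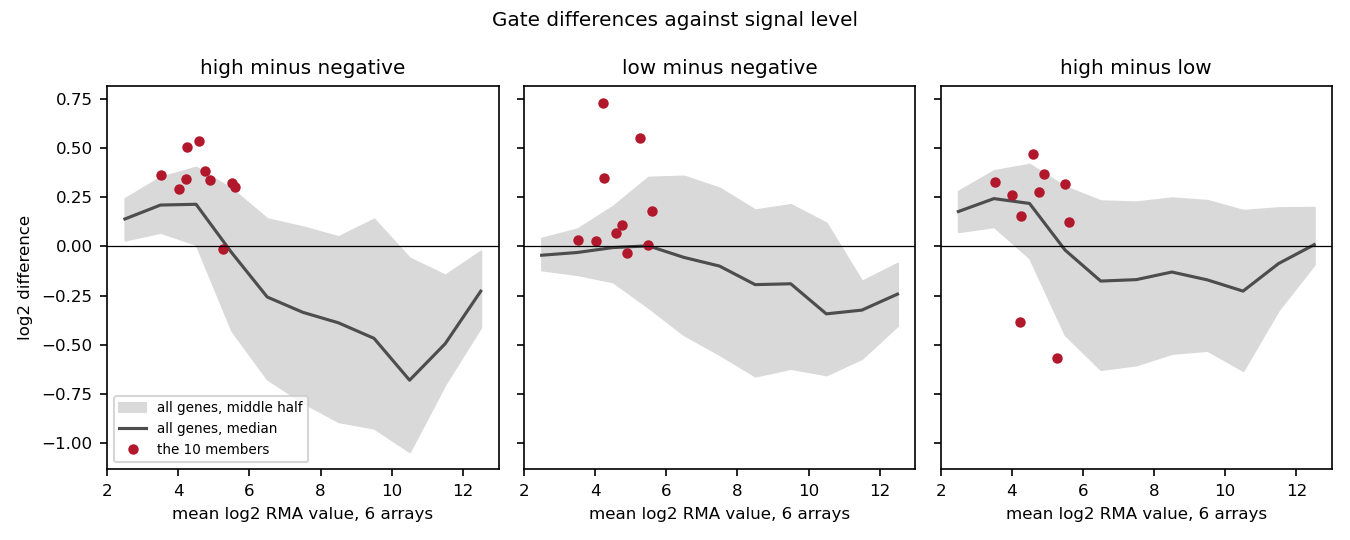
Log2 difference (vertical axis) against the mean log2 RMA value over 6 arrays (horizontal axis). The line is the median and the band the middle range (quartiles) of all genes in steps of 1 unit, and red points are the 10 members. In comparisons with the high gate the line is above 0 at low signal and mostly below 0 at high signal.

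Some marker genes of cell types were called between the gates and others were not. Epcam, an epithelial marker, had 9.68 and 9.40 on the high arrays, 9.45 and 9.42 on the low arrays, and 9.98 and 9.85 on the negative arrays. Chga, a granin of enteroendocrine cells, averaged 7.69 ± 0.73 in high cells, 12.55 ± 0.42 in low cells and 6.14 ± 0.16 in negative cells. Lyz1, the Paneth cell lysozyme gene, averaged 13.23 ± 0.14, 13.22 ± 0.01 and 11.33 ± 0.34 (SD, n = 2 each), and Lgr5, a crypt base stem cell marker, 7.75 ± 0.40, 6.05 ± 0.01 and 6.54 ± 0.24. The list of 5 stem markers that holds Lgr5 did not share its order of gates. These markers averaged 6.82 and 7.22 on high, 6.37 and 6.54 on low, and 7.43 and 7.59 on negative arrays. High minus negative was -2.20 for Slc14a1, -1.18 for Olfm4, -0.22 for Ascl2, -0.04 for Smoc2 and 1.21 for Lgr5. Slc14a1 was called lower and Lgr5 higher there (limma), and the other stem markers were not called. The mean of the list thus does not stand for each marker. Lymphocyte markers, all 5 above background on every array, averaged 6.28 and 6.41 on high, 10.21 on both low, and 8.46 and 8.59 on negative arrays, and their part in the members' values was not tested. Of 5 multiciliated cell markers 3 were above background on no array, and their means lay at 4.07 and 4.04 on the high arrays, 3.78 and 3.92 on the low arrays, and 3.84 and 3.85 on the negative arrays. Paneth cell markers, all 6 above background on every array, averaged 12.70 and 12.47 on high, 11.65 and 11.91 on low, and 8.84 and 8.57 on negative arrays. Stroma markers, 3 of 5 above background on every array, lay at 4.69 and 4.81, 4.54 and 4.44, and 4.51 and 4.48 for high, low and negative arrays. Epcam was not called in any comparison, nor was any multiciliated or stroma marker. Chga was not called in high minus negative (limma adjusted p = 0.0678).

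The rest of the pathway was taken as 5 lists with 47 genes, of which 45 were measured. In high minus negative 1 rose and 1 fell, in low minus negative 0 were called, and in high minus low 1 fell (limma). At an unadjusted p under 0.05 there were 6, 5 and 7 of 45, against 22.2%, 18.5% and 22.6% of all genes. Their medians were 0.04, 0.04 and 0.03, beside 0.10, -0.03 and 0.13 for all genes. Called higher among all genes were 1.36%, 3.42% and 1.01%, and called lower 3.35%, 2.54% and 3.89%, in the order high minus negative, low minus negative and high minus low.

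Among 12 partners of the core proteins, Smurf2 fell in high cells. Smurf2 is a ubiquitin ligase that marks Prickle1 for degradation in the mouse. It had 5.56 and 5.95 on the high arrays, 7.44 and 7.14 on the low arrays, and 7.23 and 7.65 on the negative arrays. High arrays lay below all others, and low and negative arrays overlapped. High minus negative was -1.69 ± 0.25 (SE; limma adjusted p = 0.0197) and high minus low -1.54 ± 0.25 (limma adjusted p = 0.0191). Over all 3013 genes with mean values from 6 to 7, where Smurf2 lies, the medians of these comparisons were -0.26 and -0.18. A separate Smurf2 probe set had 6.02 and 5.50 on the high arrays, 6.46 and 6.95 on the low arrays, and 6.26 and 7.12 on the negative arrays, again without overlap of high with the others. The call against negative cells was lost without negative replicate 1 (limma adjusted p = 0.108) or 2 (limma adjusted p = 0.145), and the call against low cells without low replicate 1 (limma adjusted p = 0.119) or 2 (limma adjusted p = 0.0688). The other 11 partners, the dishevelled genes Dvl1, Dvl2 and Dvl3 among them, were not called in any comparison.

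The gene of the 45 that rose in high cells against negative cells was Jun. Jun encodes a transcription factor that JNK phosphorylates, and it is also an immediate early gene. It had 10.24 and 10.10 on the high arrays, 9.81 and 9.87 on the low arrays, and 9.25 and 9.21 on the negative arrays. The gates did not overlap. High minus negative was 0.94 ± 0.18 (SE; limma adjusted p = 0.0359) and low minus negative 0.61 ± 0.18 (limma adjusted p = 0.111). The first call was lost without high replicate 2 (limma adjusted p = 0.0518), without either negative array (limma adjusted p = 0.202 and 0.209) and in 4 alternative fits (limma adjusted p from 0.0537 to 0.0761).

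No gene was called among 9 non-canonical ligands and co-receptors, which include Wnt5a, Ror2 and Ryk, with medians of 0.17, 0.07 and 0.09 in the order given above. The same held for 6 measured genes of the Fat and Dachsous system, large cadherins that give tissue-wide direction, with medians of 0.12, -0.13 and 0.17. It held as well for 7 effectors at the basal body, with medians of 0.04, 0.09 and -0.15, among them Dlg3, known as a Flattop partner in the mouse. At an unadjusted p under 0.05 these 3 lists held 0 genes in high minus negative, 3 in low minus negative and 2 in high minus low, where the shares over all genes were 22.2%, 18.5% and 22.6%.

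Beside Fzd3 and Fzd6, 8 other Frizzled genes were measured, and Fzd5 fell in low cells. Fzd5, a Wnt receptor of Paneth cells and crypts, had 5.79 and 6.24 on the high arrays, 5.78 and 5.63 on the low arrays, and 6.74 and 7.41 on the negative arrays. Both positive gates lay below the negative gate. Low minus negative was -1.37 ± 0.28 (SE; limma adjusted p = 0.0380) and high minus negative -1.06 ± 0.28 (limma adjusted p = 0.0883). Over all genes with mean values from 6 to 7, where Fzd5 lies, the medians of these comparisons were -0.06 and -0.26. The call in low cells was lost without any 1 of the 4 arrays (limma adjusted p from 0.0804 to 0.209) and after quantile normalization (limma adjusted p = 0.0630).

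**Figure D4:**
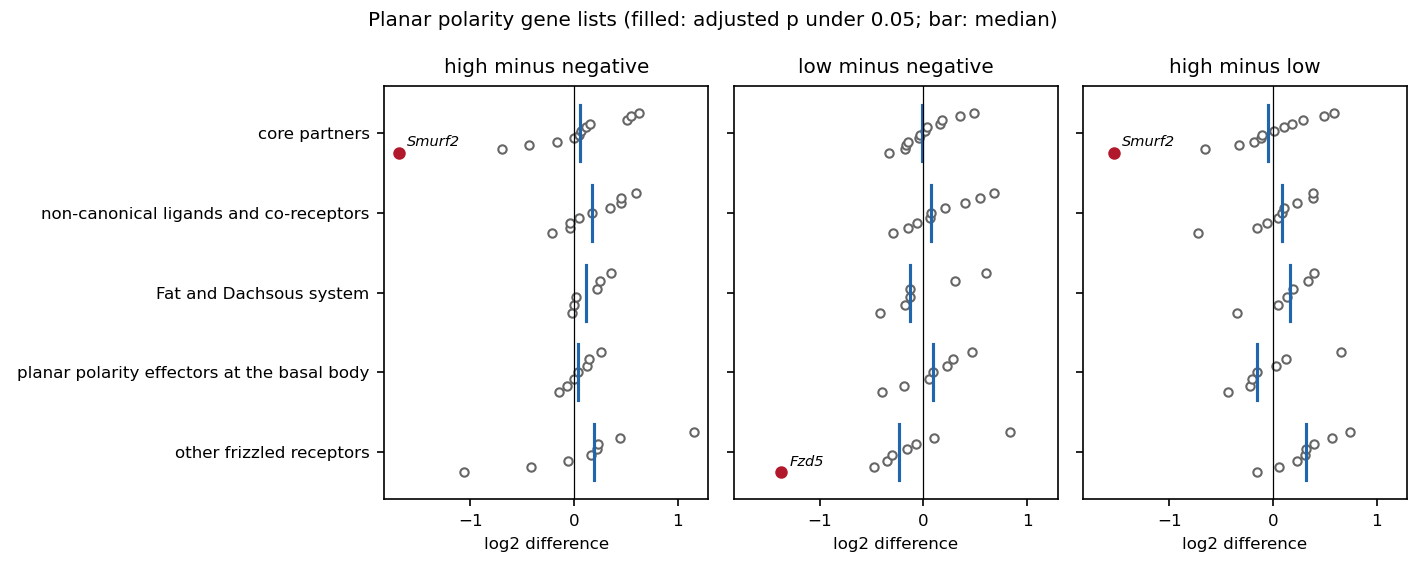
Log2 difference (horizontal axis) of each gene of 4 pathway lists and the other Frizzled receptors (vertical axis) in the 3 comparisons. Filled points passed an adjusted p of 0.05 and bars are list medians: Smurf2 in high minus negative, Fzd5 in low minus negative and Smurf2 in high minus low.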

How the data were processed

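Gene expression was measured on 1-colour arrays. Per the submitters' processing notes the authors used RMA in Affymetrix Expression Console 1.3.0.187. The deposited values, from 1.90 to 13.98, were taken as log2 values, and no source used here states the background options. The columns of 12 of the 18 samples hold no values and are not analysed here. The values and platform annotation gave 21789 probe sets with a single symbol, 1621 with several and 12146 not listed. The probe set with the highest mean stood for each of 999 genes with several, leaving 19938 genes, and 12891 lay above background. GRCm38.p6 gene IDs matched 21698 probe sets and served for names.

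Genes were tested with limma 3.58.1 in R 4.3.3, 6 arrays in 1 fit of 3 gate means with 3 residual degrees of freedom, two-sided, with Benjamini-Hochberg adjustment over all genes. Labels name pools but not whether gates shared them, so p-values measure only the spread between arrays. Precision is limited by having 2 arrays a gate. Fits were tested on simulated data with independent noise and no shift of dim genes between gates, so that test does not cover such a shift. Where no array of the dimmer gate was above background, a difference is given as at least the brighter mean minus the mean over dim arrays of the higher of the background level and their own value. Such a bound is taken from gate means and leaves out the spread between arrays and any shift of dim genes between gates. The members and lists were chosen with earlier results of these data known. Of the 5 pathway lists, 1 is counted in the totals and not reported by itself here. Named genes were the 10 members, up to 3 called genes of each list, the 3 genes most like Cfap126 and 4 landmarks. Alternatives covered the prior, the arrays fitted, dim genes, probe sets, scaling, array weights, the threshold, a replicate block and leaving out each array. Figures were drawn with Python 3.11.15 and matplotlib 3.10.9.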

Additional observations from a re-analysis of the deposited data

How the results depend on the processing

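The count of 0 members called held in all 3 comparisons under every alternative, with 7 of the 10 genes left when genes not above background were removed. Without 1 array the Cfap126 difference ran from -0.31 to 0.28 in high minus negative, from 0.07 to 1.04 in low minus negative and from -1.05 to -0.08 in high minus low. Of the other pathway genes in high minus negative, 1 was called with a trend prior, with the 2 gates alone, with array weights and with receptor-gene centring, and 1 was called in low minus negative with array weights. Without 1 array these counts ran from 0 to 2 in high minus negative, stayed at 0 in low minus negative and ran from 0 to 4 in high minus low, and the cause was not tested. The members' median was 0.25 in high minus negative with arrays centred on their medians, 0.18 in low minus negative without negative replicate 2 and 0.17 in high minus low without high replicate 2. The median of the members in low minus negative was 0.01 with arrays centred on their medians, with 5 of 10 estimates above 0. With quantile normalization the members' medians were 0.31, 0.04 and 0.20 in high minus negative, low minus negative and high minus low, beside 0.02, -0.03 and 0.06 for all genes.

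Over all genes, 939, 1188 and 978 were called in the same order. With the 2 gates alone the counts for high minus negative and high minus low were 561 and 499, and with array weights the 3 counts were 620, 2150 and 607. At an adjusted p under 0.10 they were 1817, 1914 and 1771. Quantile normalization gave 621 in high minus negative, 324 higher and 297 lower, against 272 higher and 667 lower. Without 1 array they ran from 13 to 1919, from 187 to 565 and from 381 to 1739. In high minus low quantile normalization gave 326 higher and 616 lower, against 202 and 776. Receptor-gene centring gave 195 higher and 1098 lower in high minus negative and 96 higher and 1252 lower in high minus low. It moved the median of all genes to -0.11 and -0.12 there.

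Deviations of same-numbered arrays correlated across genes at 0.10 between high and negative, 0.10 between low and negative and 0.08 between high and low gates. With 1 deviation a gate, these correlations cannot tell whether same-numbered gates shared animals. Since the labels do not say either, the main fit did not take the numbers as pairs. With the replicate block 0 members were called in any comparison, and Cfap126 differed by -0.01 in high minus negative (limma adjusted p = 0.984). Fewer arrays leave fewer residual degrees of freedom, which bears on the counts without 1 array, where a lone array is assumed to vary like the others. Dim signal limits Vangl2, Fzd3 and Celsr3, which are above background on 0, 0 and 2 arrays.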

Other observations

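Other genes of the lists had larger estimates than the members without being called. They were picked once their values were known. Smurf1, a ubiquitin ligase related to Smurf2, had 4.60 and 4.21 on the high arrays, 5.16 and 4.95 on the low arrays, and 5.15 and 5.04 on the negative arrays, and high minus negative was -0.69 ± 0.21 (SE; limma adjusted p = 0.120). Fzd9, a Wnt receptor, had 6.16 and 6.53 on the high arrays, 5.76 and 6.29 on the low arrays, and 5.02 and 5.36 on the negative arrays, with high minus negative of 1.15 ± 0.26 (limma adjusted p = 0.0599) and low minus negative of 0.83 ± 0.26 (limma adjusted p = 0.138). Mapk9, a JNK gene, averaged 6.89 in high and 7.78 in negative cells, with high minus negative of -0.89 ± 0.27 (limma adjusted p = 0.120). Over all 1870 genes with mean values from 7 to 8, where Mapk9 lies, the median of that comparison was -0.34.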
